A study of Bos taurus with 13 samples.

Results

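The genes described here are 7 members of the machinery that copies and divides the genome: the replication genes PCNA and MCM7, and the mitosis genes BIRC5, BUB3, PRC1, KIF22 and CETN2. They were found as the spots of a bovine mammary cDNA array whose annotated gene symbol was one of these names, which gave 7 of 706 named genes, 8 cDNA clones and 24 of 3888 spots. The members were chosen by measured values of these same arrays: BUB3 and KIF22 had stood out on the lactating arrays, PRC1 in prepubertal mammary gland and CETN2 in thymus. Their values on the tissue and lactating arrays are therefore given as a description, without a test, and do not support any statement about the group.

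Before a cell divides it copies its DNA once, with a helicase ring that opens the strands and a sliding clamp that keeps the polymerases on their template. The copies are then parted by the spindle, whose attachment to chromosomes is watched by a checkpoint, and the daughter cells are separated by cytokinesis. In the mammary gland, growth of ducts and alveoli before and during pregnancy depends on such division, and the lactating gland is dominated by secretory cells. Thymus, lymph tissue, spleen and the lining of the ileum are known for populations of dividing cells, while liver and adipose tissue renew slowly.

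Each of the 13 arrays compared 2 total RNA samples of Bos taurus by hybridisation with different labels. Lactating mammary gland was set against prepubertal mammary gland of a Holstein heifer on 2 arrays, with a heifer of 136 kg on array 1 and of 227 kg on array 2. Postpubertal gland of a 310 kg Holstein heifer was set against the prepubertal gland of a 136 kg heifer on 1 array. The 8 tissue arrays held the prepubertal mammary gland of a 136 kg Holstein heifer, thymus, spleen, lymph tissue, liver, ileum, adrenal tissue or adipose tissue, each against the BovMac cell line as the reference, and 2 self arrays held the reference against itself. The label of self array 1 spells the line BovMav, and lactating array 2 carries the keyword post-pubertal although its title and channel say pre-pubertal, which were followed. The labels give no age, number of animals or stage of lactation, and do not say whether the glands of 136 kg heifers or the lactating glands came from the same animal.

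Each value is a deposited log ratio, for which no source used here gives the base, the order of channels or the dyes, so differences are given in log units and not as folds. Positive values on the lactating arrays are said to lie on the casein side: 5 of 13 measured milk secretion genes passed the test there and all 5 were positive, with the alpha-S1 casein gene CSN1S1 at 1.61 and 2.56. The list median was 0.47, and 2 of the 13 means were negative, those of SCD (-0.17) and MUC1 (-0.10). The caseins CSN1S2 on array 1 (-0.19) and CSN3 on array 2 (-0.16) were negative as well. ACSS2, which passed, had clones that differed, at 2.46 and 2.36 for the first and at 0.05 and 0.32 for the second. The clones of PAEP, which did not pass, read 0.0016 and -0.27 for the first and 0.75 and 1.41 for the second. The casein side is likely the one with more RNA in lactating gland. Lactating RNA stood in channel 1 and tissue RNA in channel 2, so if the order of channels was shared, a positive tissue ratio would be the side of the reference, but whether it was shared is not stated. The signs below are those of the deposited ratio, and the tissue signs have no settled direction. Each tissue value is a ratio to the reference cell line, whose own level of the members is not known here. A tissue value is therefore not a measure of cell division in the tissue alone. In these bulk samples, fewer cells of a type and less RNA per cell cannot be told apart.

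The arrays fell into sets by a technical measure. A run of 144 spots without a gene name stood at exactly 0 for 59.7% to 69.4% of its spots on 4 arrays, those of ileum, prepubertal mammary gland, lactating array 1 and self array 1, and for at least 98.6% on the other 9. Across all spots the lactating arrays correlated at r = 0.62 and the self arrays at r = 0.02, and pairs of tissue arrays lay between -0.15 and 0.59. All 312 of 312 member spot values were present, so no member lost a value on any array. The platform carried 0 measured macrophage, adipocyte or adrenal markers. The hepatocyte gene FGG was at 0.21 in liver and at 0.44 in prepubertal mammary gland. Its 2 clones read 0.25 and 0.16 in liver, and 0.06 and 0.82 in prepubertal mammary gland. The identity of the tissues could therefore not be checked with such genes. The leukocyte genes PTPRC, LCP1 and RAC2 lay between -0.35 and -0.10 in lymph tissue and between -0.47 and -0.09 in spleen. They lay between -0.29 and 0.06 in thymus and between 0.10 and 0.85 in ileum. The negative sign was not limited to lymphoid organs, since they lay between -0.38 and -0.04 in liver. In adipose tissue, adrenal tissue and prepubertal mammary gland 2 of the 3 were negative. As ratios to the reference cell line, whose own level of these genes is not known here, they do not give the leukocyte content of a tissue.

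The self arrays, where the same RNA stood in both channels, show the noise of each member and were not used to choose them. In limma with Benjamini-Hochberg adjustment 0 of 7 members differed from 0 over these 2 arrays, with adjusted p of 0.717 to 0.989, and the background was 0.0% of 680 genes. At an unadjusted p under 0.05 the test had 43 genes, PRC1 among them, and with arrays scaled to the same spread it called 5. PRC1 had the largest mean, -0.52 ± 0.34 (SD, n = 2), with -0.76 on array 1 and -0.27 on array 2 (adjusted p = 0.717, limma). KIF22 was at -0.003 and 0.53, and its 3 spots on array 2 spread from -0.16 to 1.25. CETN2 stayed closest to 0, at -0.03 and -0.06, though its spots on array 2 spread from -0.29 to 0.06. The other members lay at 0.18 and -0.09 (PCNA), -0.15 and -0.09 (MCM7), -0.05 and 0.22 (BIRC5), and 0.01 and 0.24 (BUB3). Of the members, 1 lay at least 0.5 log unit from 0 on self array 1 (PRC1) and 1 on self array 2 (KIF22), beside 3.98% and 12.8% of all genes. Array 2 was the noisier, since the median SD over a member's spots was 0.46 there and 0.13 on array 1.

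**Figure D1:**
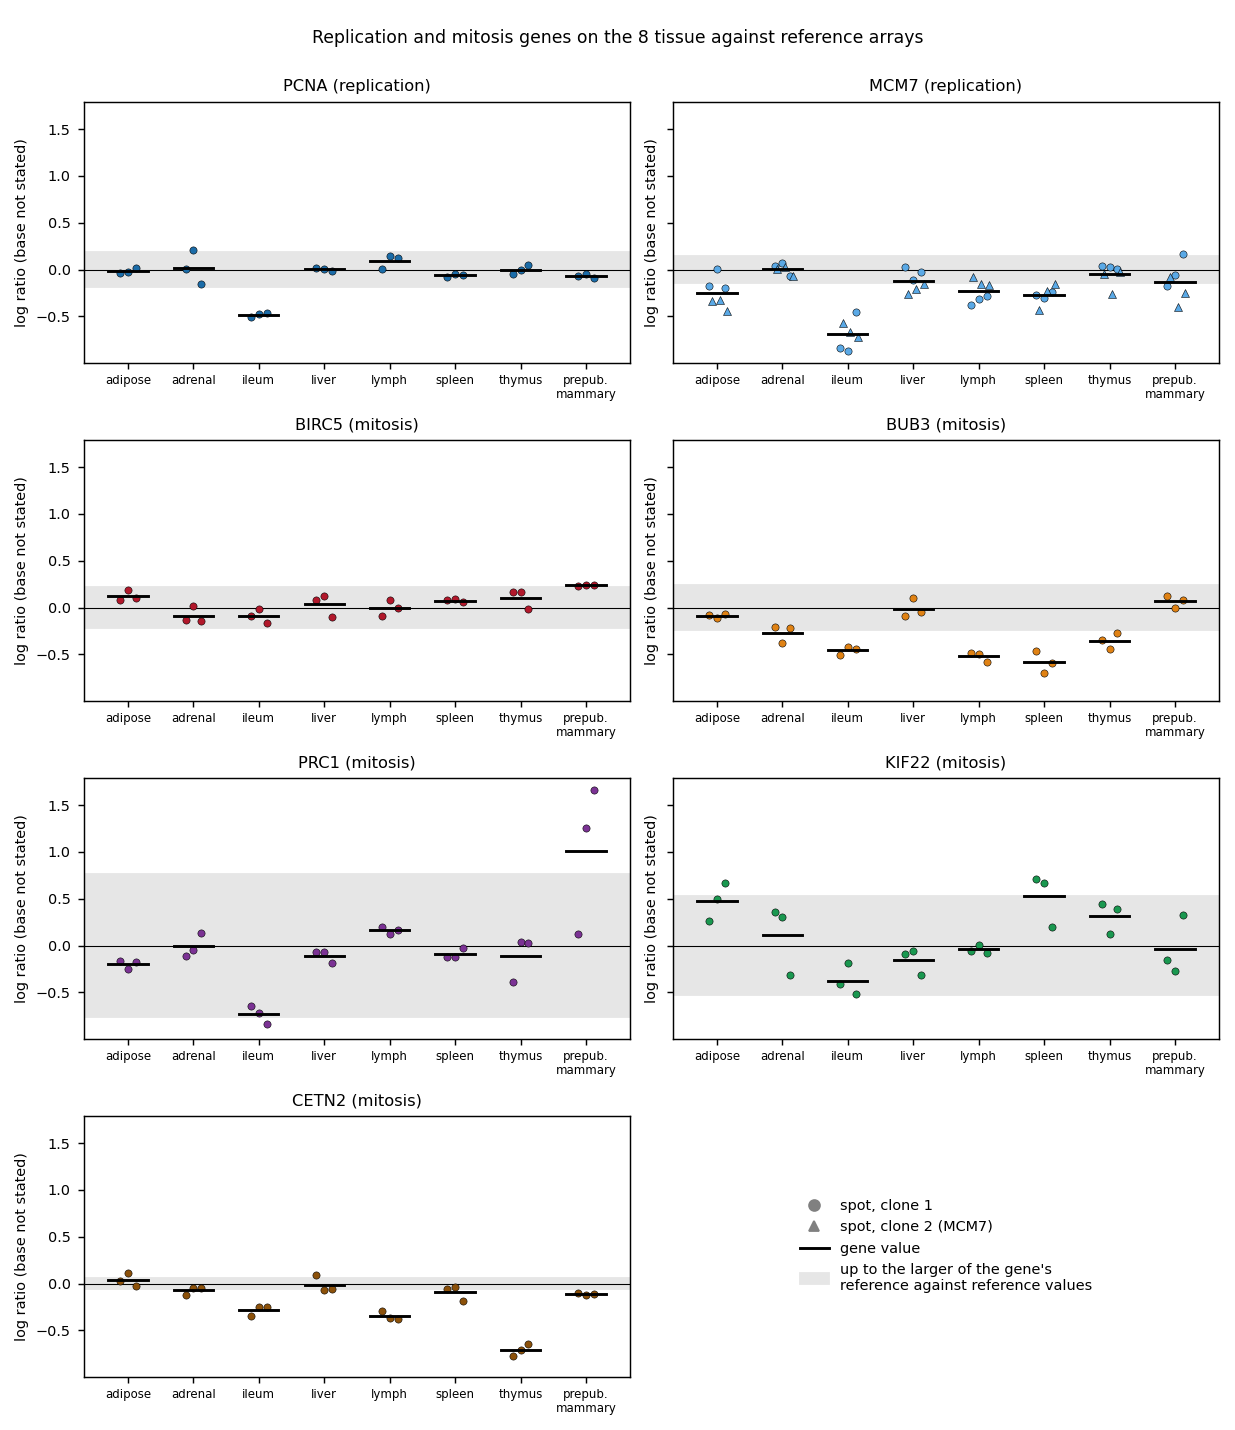
Log ratio (vertical axis, base not stated) of every spot of the 7 genes on the 8 tissue against reference arrays (horizontal axis). Points are spots, bars are gene values and the grey band reaches to the larger of the gene's 2 self values. PCNA and MCM7 lie lowest in ileum at -0.48 and -0.69, CETN2 lies lowest in thymus at -0.71, and the 3 PRC1 spots of prepubertal mammary gland spread from 0.12 to 1.66.

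Among the replication genes, PCNA, the sliding clamp of the DNA polymerases, was nearly level in 7 tissues and stood apart in ileum. It read -0.48 in ileum, -0.07 in prepubertal mammary gland, -0.06 in spleen, -0.02 in adipose tissue, -0.0013 in thymus, 0.0032 in liver, 0.02 in adrenal tissue and 0.09 in lymph tissue. The ileum spots, from -0.50 to -0.47, lay 0.42 units below the next tissue on average and overlapped no other tissue. Apart from ileum, the only neighbours in this order whose spots did not overlap were spleen and adipose tissue, which differed by 0.05. There were no replicate arrays of any tissue, so the spread given is that over spots of 1 array, which is technical.

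MCM7, a subunit of the minichromosome maintenance helicase, had its lowest value in ileum as well. It read -0.69 in ileum, -0.27 in spleen, -0.25 in adipose tissue, -0.23 in lymph tissue, -0.13 in prepubertal mammary gland, -0.12 in liver, -0.04 in thymus and 0.0011 in adrenal tissue. Ileum lay 0.41 units below spleen without overlap of spots, and all other neighbours overlapped. The gene was printed as 2 clones of 3 spots each, which read -0.72 and -0.65 in ileum. Over the 8 tissues the clones followed each other with r = 0.80 and rho = 0.69, and r was 0.31 without ileum. On the self arrays they lay on opposite sides, the first clone at 0.21 and -0.59 and the second at -0.50 and 0.40, so the gene's small self values average larger deviations of its clones.

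Other subunits of the same helicase ring showed how far MCM7 was matched by its partners. MCM6 was negative in the same 7 tissues as MCM7, at -0.35 in spleen, -0.30 in ileum, -0.18 in lymph tissue, -0.14 in adipose tissue, -0.12 in thymus, -0.11 in liver and -0.06 in prepubertal mammary gland, and at 0.05 in adrenal tissue. Across the 8 arrays, which share the reference RNA, MCM7 and MCM6 had r = 0.74 and rho = 0.86, with r = 0.81 without ileum and 0.68 without the 2 arrays farthest from the median of MCM7. MCM3 did not follow them. It was at 0.25 in thymus, 0.19 in spleen and 0.13 in lymph tissue, with -0.20 in ileum. The r of MCM3 with MCM7 was 0.36, turning to -0.33 without ileum. Genes outside the ring had a higher r with MCM7 than MCM6 had, among them ACTN1 (0.98) and MRPL30 (0.97).

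Of the mitosis genes, BIRC5 varied least over the tissues. BIRC5 encodes survivin, a subunit of the chromosomal passenger complex that corrects attachments to the spindle and is also counted in the inhibitor of apoptosis family. It read -0.09 in ileum and in adrenal tissue, -0.004 in lymph tissue, 0.04 in liver, 0.07 in spleen, 0.10 in thymus, 0.12 in adipose tissue and 0.24 in prepubertal mammary gland. The mammary spots, from 0.23 to 0.24, lay above those of adipose tissue by 0.11 on average without overlap, while all lower neighbours overlapped. The value on self array 2 was 0.22, about that of the mammary gland, with an SD over spots of 0.46.

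BUB3, which holds the spindle assembly checkpoint at kinetochores that lack microtubules, was negative in 7 of the 8 tissues. It read -0.58 in spleen, -0.52 in lymph tissue, -0.46 in ileum, -0.35 in thymus, -0.27 in adrenal tissue, -0.09 in adipose tissue, -0.01 in liver and 0.07 in prepubertal mammary gland. Among all genes of an array it ranked 7 from the lowest of 702 in spleen and 10 of 704 in lymph tissue, whereas it ranked 74 of 701 in ileum. The order had 1 gap without overlap of spots, 0.18 between adrenal and adipose tissue, so the 5 lowest tissues formed a chain of overlapping neighbours. Spot SDs were 0.02 to 0.12 in the 8 tissues, and the self values were 0.01 and 0.24, of the opposite sign to 7 of the tissue values.

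PRC1, which bundles antiparallel microtubules in the spindle midzone and is needed for cytokinesis, spread widest of the 7 genes. It read -0.73 in ileum, -0.20 in adipose tissue, -0.11 in thymus and in liver, -0.09 in spleen, -0.01 in adrenal tissue, 0.17 in lymph tissue and 1.01 in prepubertal mammary gland. The mammary value ranked 3 from the highest of 705 genes, yet its 3 spots read from 0.12 to 1.66 with an SD of 0.80, a range that takes in the spots of lymph tissue. The ileum spots lay 0.54 units below adipose tissue without overlap, but the self array 1 value of -0.76 was larger in size than the ileum value.

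KIF22, a kinesin that binds chromosomes and pushes their arms towards the middle of the spindle, had no tissue that stood apart from its neighbours. It read -0.37 in ileum, -0.15 in liver, -0.04 in lymph tissue, -0.03 in prepubertal mammary gland, 0.11 in adrenal tissue, 0.32 in thymus, 0.47 in adipose tissue and 0.53 in spleen. It ranked 6 from the highest of 702 genes in spleen and 4 of 702 in adipose tissue. All neighbours overlapped in their spots, and 0 of the 8 values exceeded in size the 0.53 of self array 2.

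CETN2, the calcium-binding centrin of centrioles that is also part of a complex recognising damaged DNA, stood apart in thymus. It read -0.71 in thymus, -0.35 in lymph tissue, -0.28 in ileum, -0.11 in prepubertal mammary gland, -0.09 in spleen, -0.07 in adrenal tissue, -0.01 in liver and 0.04 in adipose tissue. Thymus ranked 3 from the lowest of 703 genes, and its spots, from -0.78 to -0.65, lay 0.37 units below lymph tissue without overlap. A second gap without overlap, of 0.17, parted ileum from prepubertal mammary gland. Because the self values of CETN2 were as small as -0.03 and -0.06, 6 of its 8 tissue values exceeded them in size. The value on self array 2 was a mean of spots from -0.29 to 0.06, with an SD of 0.20.

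Counted over tissues, 7 of 56 member values lay at least 0.5 log unit from 0. In ileum 2 members did (MCM7 and PRC1) against a background of 17.3% of genes, and with arrays scaled to the same spread 0 members did. In spleen 2 did (BUB3 and KIF22, background 2.42%), in lymph tissue 1 (BUB3, 1.99%), in thymus 1 (CETN2, 3.84%) and in prepubertal mammary gland 1 (PRC1, 5.96%). There were 0 in adipose tissue (background 1.14%), adrenal tissue (0.713%) and liver (0.853%). Values larger in size than both self values of the gene numbered 18 of 56, against 28.0% of all gene values: 6 for CETN2, 5 for BUB3, 4 for MCM7, 1 each for PCNA, BIRC5 and PRC1 and 0 for KIF22. Since these arrays were used in choosing the genes, nothing is read from these counts.

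Ileum was the array on which all members had 1 sign: 7 of 7 were negative there, with a median of -0.46, while 330 of 701 genes were negative with a median of 0.02. Ileum was the lowest of the tissues for 5 of 7 members and for 170 of 695 genes. The array was also the widest of the tissue arrays, with an SD over genes of 0.51 against 0.15 to 0.25 on the other 7, and it belonged to the set of 4 arrays named above. The part of that set, or of the leukocyte genes at 0.10 to 0.85, in the ileum values was not tested. The 3 measured epithelial genes differed in ileum, with EPCAM at 1.94, ELF5 at 0.72 and KRT7 at 0.06. The ELF5 clones read 0.02, 0.29 and 1.86 there, and EPCAM was at 1.51 on self array 2.

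**Figure D2:**
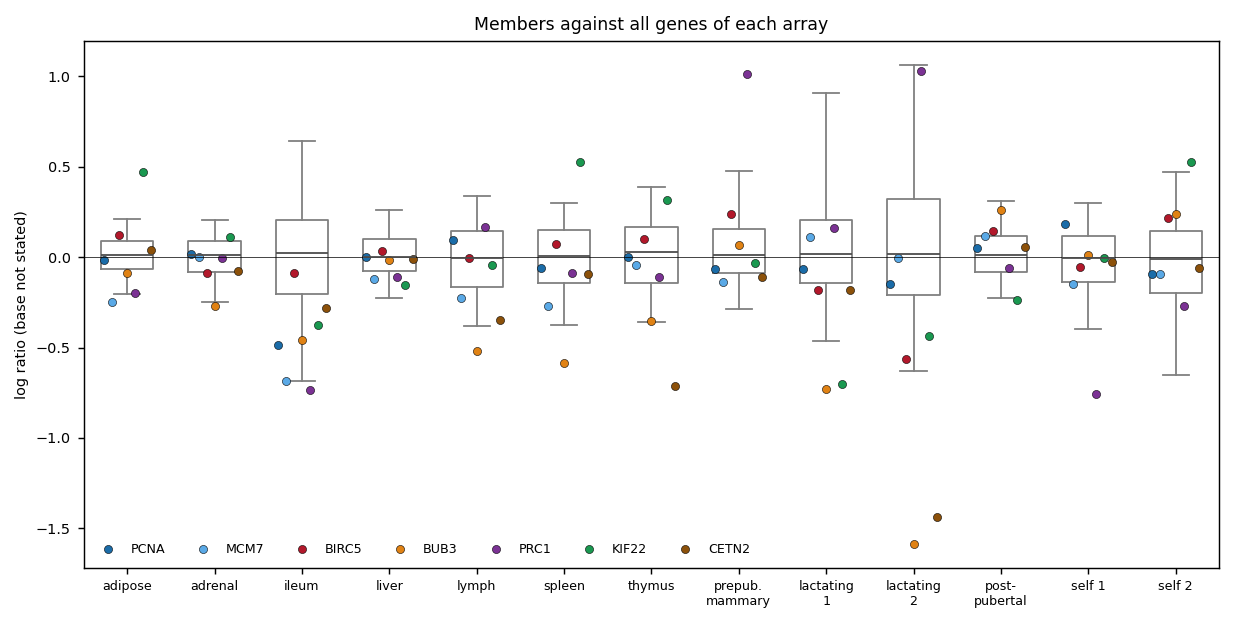
Log ratio (vertical axis, base not stated) of the 7 genes on each of the 13 arrays (horizontal axis), beside all named genes of that array. Boxes reach from the lower to the upper quartile of genes with the median inside, whiskers reach from the 5th to the 95th percentile and coloured points are the members. All 7 points lie below 0 in ileum, BUB3 and CETN2 lie far below the whisker on lactating array 2 and CETN2 does in thymus.

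How the members varied with each other depended on the ileum array. Over the 8 tissues 19 of 21 pairs had a positive r, with a median of 0.39 and a range from -0.13 (BUB3 and KIF22) to 0.87 (PCNA and MCM7, rho = 0.62). Without ileum 9 pairs were positive, the median was -0.05 and 10 pairs had changed sign. PCNA and MCM7 then had r = 0.10. Within the 6 tissue arrays of the set with at least 98.6% of the run at 0, 7 pairs were positive and the median was -0.26. These values describe 8 arrays that share 1 reference RNA.

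For each member the 2 genes with the highest r over the tissues, among 695 genes measured on all 8, were listed. PCNA was most like CAV1 (r = 0.98, rho = 0.71) and PTBP1 (r = 0.97, rho = 0.69), and with the 2 farthest arrays left out r was 0.67 and 0.06. MCM7 was most like ACTN1 (r = 0.98, rho = 0.98, and 0.87 without the 2 farthest arrays) and MRPL30 (r = 0.97, rho = 0.90, and 0.72). ACTN1 read -1.44 in ileum, -0.49 in spleen, -0.36 in adipose tissue and -0.01 in adrenal tissue, the same order at those places as MCM7. KIF22 was most like PACSIN2 (r = 0.91, rho = 0.90, and 0.92 without the 2 farthest arrays) and IMMT (r = 0.90, rho = 0.88, and 0.91).

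The partners of the mitosis genes other than KIF22 also had a lower r when the 2 farthest arrays were left out. BIRC5 was most like RMDN1 (r = 0.92, rho = 0.76, and 0.81 without the 2 farthest arrays) and GLE1 (r = 0.89, rho = 0.69, and 0.65). BUB3 was most like TRAM1 (r = 0.87, rho = 0.83, and 0.75) and GEM (r = 0.80, rho = 0.88, and 0.71). PRC1 was most like HNRNPM (r = 0.95, rho = 0.79, and 0.57) and SPRTN (r = 0.93, rho = 0.67, and 0.34). CETN2 was most like ELOVL6 (r = 0.91, rho = 0.67, and 0.64) and UNC45A (r = 0.88, rho = 0.76, and 0.37). None of these partners was a member, and a high r among 695 genes over 8 arrays is a description of these arrays only.

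**Figure D3:**
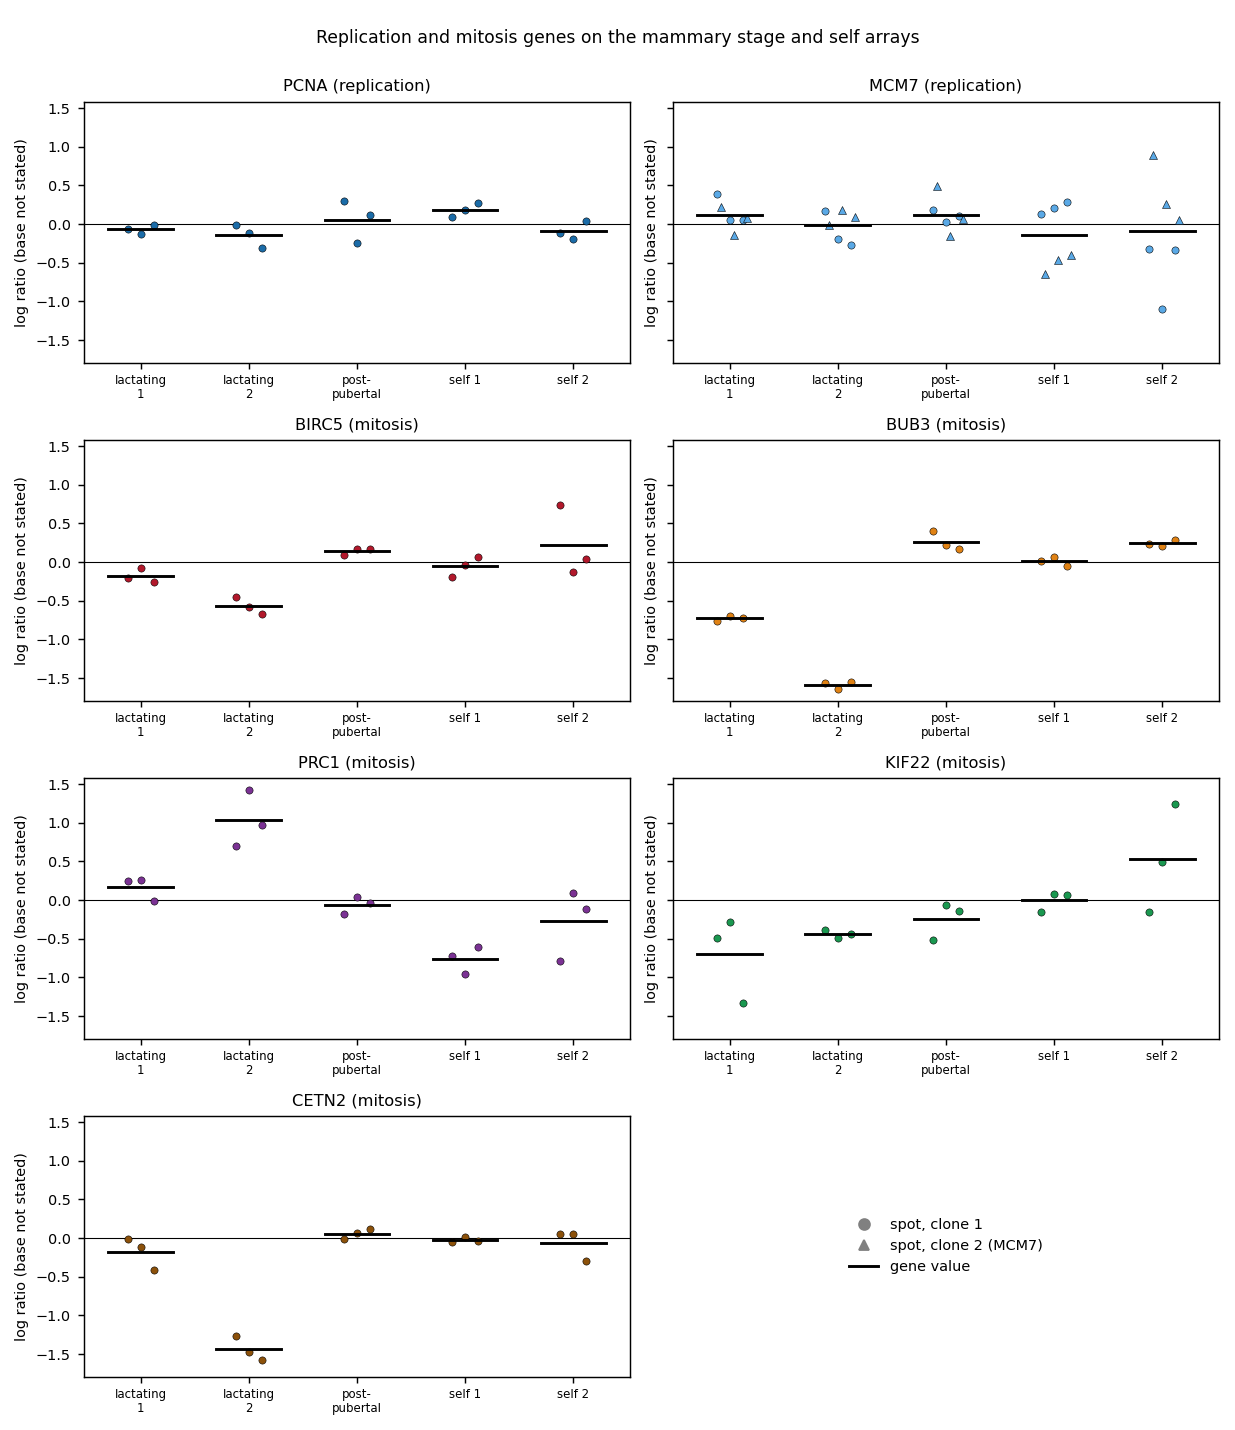
Log ratio (vertical axis, base not stated) of every spot of the 7 genes on the lactating, postpubertal and self arrays (horizontal axis). Points are spots and bars are gene values. The 3 BUB3 spots lie between -0.76 and -0.70 on lactating array 1 and between -1.64 and -1.55 on lactating array 2, and the 2 clones of MCM7 part on the self arrays.

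In lactating against prepubertal mammary gland, 5 of 7 members lay on the opposite side from casein on both arrays, PRC1 lay on the casein side of both, and MCM7 changed sign. Of all genes, 235 of 697 were negative on both arrays. Among the replication genes PCNA read -0.07 on array 1 and -0.15 on array 2, a mean of -0.11 ± 0.06 (SD, n = 2). MCM7 read 0.11 and -0.01, a mean of 0.05 ± 0.08, with clones at 0.17 and 0.06 on array 1 and at -0.10 and 0.08 on array 2. Neither of these lay beyond its own larger self value in size on either array.

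The checkpoint gene BUB3 had the largest mean in size of the 7, and its spots lay close together on both arrays. It read -0.73 on array 1 and -1.59 on array 2, a mean of -1.16 ± 0.61 (SD, n = 2), and ranked 8 and 2 from the lowest of 700 genes. The spots reached from -0.76 to -0.70 on array 1 and from -1.64 to -1.55 on array 2, so the arrays differed by far more than their spots, by 0.86. KIF22 read -0.70 and -0.44, a mean of -0.57 ± 0.19, with spots from -1.33 to -0.29 on array 1 and from -0.48 to -0.39 on array 2. KIF22 ranked 11 from the lowest of 700 on array 1 and 80 of 700 on array 2.

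The other mitosis genes depended on which array was read. CETN2 read -0.18 on array 1 and -1.44 on array 2, where it ranked 4 from the lowest of 700 genes, a mean of -0.81 ± 0.89 and a difference of 1.26 between the arrays. BIRC5 read -0.18 and -0.57, a mean of -0.37 ± 0.27. PRC1 read 0.16 and 1.03, a mean of 0.60 ± 0.61, with spots from -0.01 to 0.26 on array 1 and from 0.69 to 1.43 on array 2. For these 3 genes the spots of the arrays did not overlap.

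Array 2 had the larger value in size for 5 of 7 members and for 456 of 697 genes, and its SD over genes was 0.60 against 0.48 on array 1. At least 0.5 log unit from 0 lay 2 of 7 members on array 1 (BUB3 and KIF22) beside 14.9% of genes, and 4 on array 2 (BIRC5, BUB3, PRC1 and CETN2) beside 25.4%. Larger in size than both self values were 7 of 14 member values, against 43.4% of all gene values. The arrays differ in the weight of the heifer and in the set by the run of spots at 0, and these cannot be told apart from other differences between the arrays. Set against the self array of the same set, BUB3 was at a difference of -0.74 on array 1 and of -1.83 on array 2, and CETN2 was at differences of -0.16 and -1.38. The same differences were 0.92 and 1.30 for PRC1, -0.70 and -0.97 for KIF22 and -0.13 and -0.78 for BIRC5. They were -0.25 and -0.05 for PCNA and 0.26 and 0.09 for MCM7. The self arrays held the cell line and not gland. Over genes, r between the lactating and self array of a set was -0.22 for array 1 and 0.02 for array 2. The differences therefore also carry the noise of the self array.

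Limma with Benjamini-Hochberg adjustment called 103 of 697 genes, 14.8%, on these 2 arrays. The members' own calls are not given, since these arrays were used in choosing them. Of the 103 genes 79, or 76.7%, lay on the casein side, and on the deposited values without centring 61.9% of 84 did. With 2 arrays each gene had 1 residual degree of freedom, and limma added 13.5 degrees of freedom drawn from the spread of all genes. The p-values thus rest mostly on a spread between these 2 arrays that is pooled over genes, and it may be technical. Channel 1 held the lactating RNA on both, so dye and stage cannot be told apart for a clone.

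**Figure D4:**
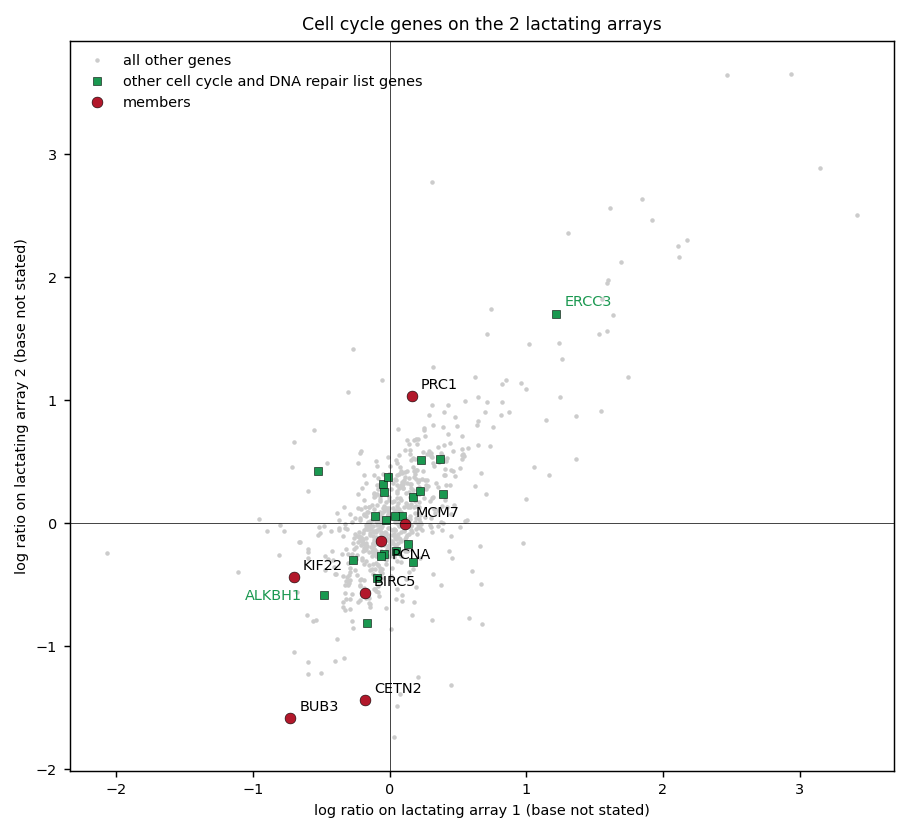
Log ratio on lactating array 1 (horizontal axis) and lactating array 2 (vertical axis, base not stated for both) of all genes measured on both. Red points are the 7 members, green squares the other genes of the cell cycle and DNA repair lists and grey points all other genes. BUB3 and CETN2 lie at the lower edge, PRC1 lies at 0.16 and 1.03, and ERCC3 lies among the casein side genes at 1.21 and 1.71.

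The wider machinery of replication and division was read from lists of genes known for these roles. Of 23 listed genes tested other than the members, 2 passed, 1 on each side, beside 14.8% of all genes, with a median of 0.0003 beside -0.0003 over all 697 genes. In the list of DNA replication and S phase 0 of 8 passed in limma, with a median of 0.06. The single-strand binding subunit RPA1 read 0.37 and 0.53, a mean of 0.45 ± 0.11 (SD, n = 2, adjusted p = 0.0618, limma). RNASEH2A, the catalytic subunit that removes ribonucleotides from DNA, read -0.17 and -0.81, a mean of -0.49 ± 0.45 (adjusted p = 0.0717, limma). At an unadjusted p under 0.05 were these 2 and MCMBP, which binds helicase subunits, at 0.37 ± 0.21 (adjusted p = 0.124, limma). On the deposited values RNASEH2A passed (adjusted p = 0.0362, limma). The helicase subunits MCM3 and MCM6 lay at 0.14 ± 0.26 and 0.08 ± 0.02, the polymerase subunit POLE3 at -0.15 ± 0.15, and the histone chaperones NASP and ASF1A at 0.05 ± 0.01 and -0.05 ± 0.68.

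In the list of mitosis and cytokinesis 0 of 6 tested genes passed in limma, 0 of them at an unadjusted p under 0.05, with a median of 0.05. ANAPC5 of the anaphase-promoting complex lay at -0.17 ± 0.14, the cohesin subunit RAD21 at 0.11 ± 0.21 and the kinetochore protein ZWILCH at 0.18 ± 0.28. SEPTIN2, a filament protein of the cleavage furrow, lay at -0.27 ± 0.25, the microtubule end-binding MAPRE1 at 0.19 ± 0.03 and VPS4B, which acts in the final cut between daughter cells, at 0.0003 ± 0.03. The kinetochore gene NUF2 had 2.13 ± 1.23 over 3 spots on array 1 and only 1 spot on array 2, and was not tested. Among cell cycle regulators 0 of 5 passed in limma, 0 of them at an unadjusted p under 0.05, with means from -0.09 (CCNL2) to 0.31 (PA2G4), and CUL1, LIN52 and RBBP4 lay at 0.24, -0.02 and -0.07.

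Both genes that passed were among 4 of the DNA repair list, beside the same 14.8% of all genes. ERCC3, the helicase of the transcription factor TFIIH that opens DNA for transcription and for excision repair, read 1.21 and 1.71, a mean of 1.46 ± 0.35 on the casein side (SD, n = 2, adjusted p = 1.03e-05, limma). It lay at -0.28 and 0.23 on the self arrays and between -0.08 and 0.27 in the tissues. It passed in 8 of 10 alternatives, whose adjusted p ran from 1.79e-09 to 0.0848, and failed in contrast with the self arrays (0.0756) and without array 2 (0.0848). Against the self array of the same set its differences were 1.49 on array 1 and 1.48 on array 2, which also carry the noise of the self array.

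ALKBH1, a dioxygenase that removes methyl groups from nucleic acids, read -0.48 and -0.58, a mean of -0.53 ± 0.07 on the opposite side (SD, n = 2, adjusted p = 0.0268, limma). Its spots on array 2 spread from -1.07 to 0.34, and it passed in 5 of 10 alternatives, with adjusted p from 0.0162 to 0.422. Without array 1 and without array 2 it did not pass (adjusted p = 0.185 and 0.422, limma). The double-strand break protein NBN lay at -0.28 ± 0.02 and nucleolin NCL at -0.02 ± 0.21, and neither passed (adjusted p = 0.238 and 0.959, limma).

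Markers of other cells were read beside these genes. Of 3 leukocyte genes 1 passed, RAC2 on the opposite side (-0.53, adjusted p = 0.0438, limma), and PTPRC and LCP1 lay at 0.08 and -0.01. Of 5 stroma genes 1 passed, COL5A2 on the casein side (0.57, adjusted p = 0.0185, limma), while the other 4 were negative, from TNC at -0.38 to COL6A1 at -0.09, with a list median of -0.17. Both calls were lost with arrays scaled to the same spread (adjusted p = 0.223 for RAC2 and 0.0907 for COL5A2, limma), in contrast with the self arrays (0.306 and 0.27) and without either array (at least 0.225 and 0.165). Of 3 epithelial genes 0 passed in limma, 0 of them at an unadjusted p under 0.05. The part of the cell mixture in the members' values was not tested.

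In the tissues the listed gene farthest from 0 with tight spots was ASF1A, a chaperone that hands histones to newly made DNA. It read 2.29 in ileum, 1.10 in prepubertal mammary gland, 0.62 in spleen, 0.46 in lymph tissue, 0.39 in thymus, 0.04 in adrenal tissue, -0.10 in liver and -0.12 in adipose tissue. The ileum spots reached from 2.25 to 2.37, while the mammary spots reached from 0.33 to 1.72 and overlapped those of spleen. ASF1A ranked 4 from the highest of 701 genes in ileum, 1 of 705 in prepubertal mammary gland, 4 of 702 in spleen and 8 of 704 in lymph tissue, and was at 0.0003 and -0.60 on the self arrays. In those arrays it lay on the opposite side to BUB3 in ileum, spleen, lymph tissue and thymus, and on the same side as PRC1 in prepubertal mammary gland.

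The other listed genes in ileum are read beside the 17.3% of all genes that lay at least 0.5 log unit from 0 there. In the list of DNA replication 3 of 8 lay at least 0.5 log unit from 0 in ileum, ASF1A, POLE3 (0.54) and NASP (-0.65), and 4 of 8 were negative. NASP, with 2 clones at -0.51 and -0.78 there, stood on the same side as PCNA and MCM7. In the list of mitosis 2 of 7 did, ANAPC5 (0.64) and NUF2, whose 2 spots read -1.11 and 3.94. In the list of DNA repair 2 of 4 did, ALKBH1 (-0.98, spots from -1.05 to -0.95) and NCL (-0.71). The listed genes other than the members thus lay on both sides of 0 in ileum.

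**Figure D5:**
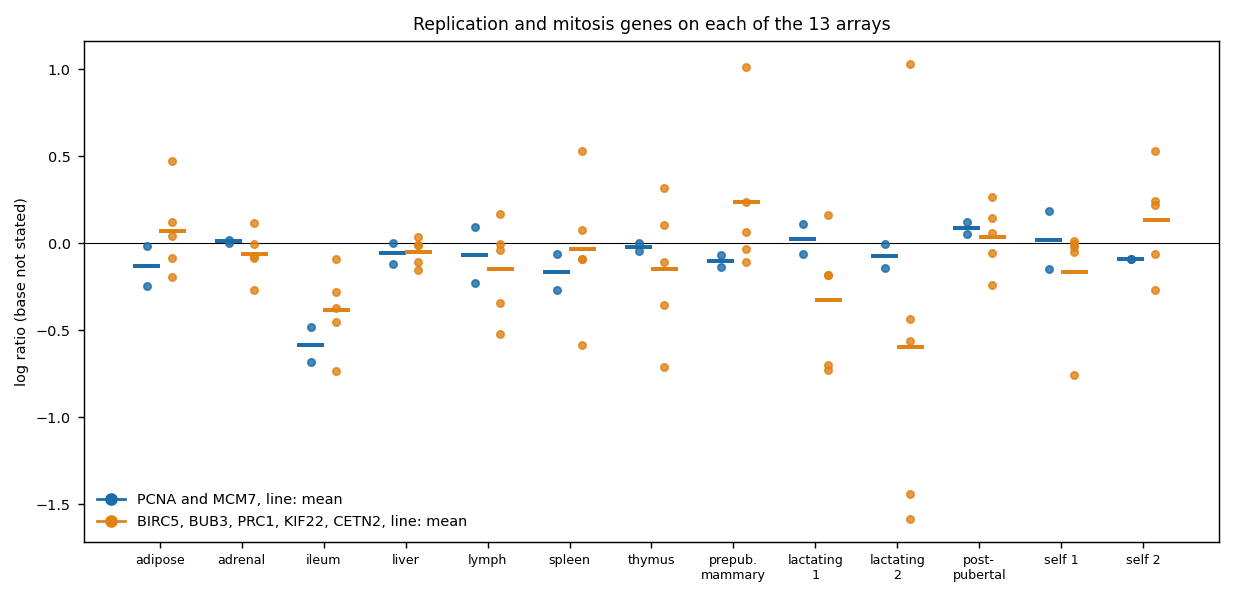
Log ratio (vertical axis, base not stated) of the 2 replication genes and the 5 mitosis genes on each of the 13 arrays (horizontal axis). Points are genes and lines are means. The replication genes lie within the range of the mitosis genes, or overlap it, on every array, and the mitosis genes spread widest on lactating array 2, from -1.59 to 1.03.

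The replication genes were compared with the mitosis genes as the mean of PCNA and MCM7 minus the mean of the other 5 members on each array. In the tissues this difference was -0.34 in prepubertal mammary gland, -0.20 in adipose tissue and in ileum, -0.13 in spleen, -0.01 in liver, 0.07 in adrenal tissue, 0.08 in lymph tissue and 0.13 in thymus. It was negative in 5 of 8 tissues with a median of -0.07, which was 0.01 without MCM7, -0.01 without KIF22 and -0.16 without PCNA. Within the 6 tissue arrays of 1 set it ran from -0.20 to 0.13 with a median of 0.03. On no tissue array were the ranges of the groups separate. In prepubertal mammary gland the replication mean was -0.10 and the mitosis mean 0.23, with PRC1 as the highest mitosis gene at 1.01. In ileum the means were -0.58 and -0.39, and in thymus they were -0.02 and -0.15. These differences moved with single genes: without PRC1 that of prepubertal mammary gland was -0.14, without MCM7 that of ileum was -0.10, and without CETN2 that of thymus was -0.01.

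On the lactating arrays the difference was 0.35 on array 1 and 0.52 on array 2, a mean of 0.44 ± 0.12 (SD, n = 2). The replication mean was 0.02 on array 1 and -0.08 on array 2, and the mitosis mean was -0.33 and -0.60. The 5 mitosis genes ranged from -0.73 to 0.16 on array 1 and from -1.59 to 1.03 on array 2, so PCNA and MCM7 lay within that range on both. Without BUB3 the mean difference was 0.26 and without PRC1 it was 0.70. On the self arrays, where both channels held the reference, the difference was 0.18 and -0.22. Set against the self array of the same set, the lactating arrays were at 0.16 and 0.75, which also carry the noise of the self array.

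The postpubertal against prepubertal array held the members near 0. BUB3 read 0.26, BIRC5 0.15, MCM7 0.12, CETN2 0.06, PCNA 0.05, PRC1 -0.06 and KIF22 -0.24. None lay 0.5 log unit from 0, and 0.861% of genes did. BUB3 ranked 56 from the highest and KIF22 29 from the lowest of 697 genes, and the difference of replication and mitosis genes was 0.05. Postpubertal RNA stood in channel 2 and prepubertal RNA in channel 1, whereas prepubertal RNA was in channel 2 of the lactating arrays, so the signs of these arrays were not set side by side. There was 1 such array and no test was made.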

How the data were processed

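The values deposited by the authors are log ratios, 1 per spot, and no source used here gives their base, background correction, normalization or channel order. An exact 0 (124 to 373 spots an array) was treated as no ratio and each array was centred on its median. Spots of a clone were averaged with at least 2 spots, and clones of a gene were averaged. Of the spots, 2538 carried 1 gene symbol in the platform annotation, 30 carried several and 1320 had none, and those with several or none were not used. Gene identifiers of 703 of 706 genes were found in RefSeq (ARS-UCD2.0), and 0 symbols changed. Lactating (697 genes) and self arrays (680 genes) entered two-sided limma tests of the mean against 0 (R 4.3.3, limma 3.58.1), Benjamini-Hochberg adjusted at 0.05 and tested on simulated data. Python 3.11.15, numpy 2.4.6, pandas 2.3.3, scipy 1.17.1 and matplotlib 3.10.9 did the rest. Named were the members, all measured genes of the pathway lists, 2 genes most like each member, and markers. The members and lists were chosen with earlier results of these data known. The number of arrays limits the precision. Alternatives were scaling, centring, exact 0, spot filters, other spreads and leaving out arrays or members.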

Additional observations from a re-analysis of the deposited data

How the results depend on the processing

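Of the 103 genes called on the lactating arrays, counts fell to 30 with arrays scaled to the same spread, to 36 with the self arrays sharing the spread and to 13 in contrast with the self arrays, and lay between 22 and 48 without either array. The self arrays gave 0 called genes, and 5 with arrays scaled to the same spread. Fits without 1 self array took the spread from the lactating arrays, so their counts are not given as noise of the self arrays. The mean difference of replication and mitosis genes on the lactating arrays, 0.44, was 0.30 with arrays scaled, 0.26 without BUB3 and 0.70 without PRC1, and 0.35 to 0.52 without either array. ERCC3, ALKBH1 and the member values at least 0.5 log unit from 0 kept their sign in the alternatives run. The other called genes were not followed for sign. Of 91 member values, 20 moved by more than the SD over spots with arrays scaled, 11 on the deposited values, and 0 with exact 0 kept, with medians of spots or with at least 1 spot. Fits without 1 lactating array took the spread from the self arrays, so the lone array is assumed to vary like them. No paired analysis was made, since the lactating and self arrays held different RNA and no label pairs them. Each tissue and the postpubertal gland had 1 array, intensities were not used here, and the limits of brightness could not be checked.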

Other observations

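The 4 arrays on which the run of spots without a gene was less often at exact 0 held some of the values described above: PRC1 at 1.01 and ASF1A at 1.10 in prepubertal mammary gland, 7 negative members in ileum, and PRC1 at -0.76 on self array 1. The same 4 arrays held BUB3 at -0.73 and KIF22 at -0.70 on lactating array 1, and ASF1A at 2.29 in ileum. The values of BUB3 in spleen, in lymph tissue and on lactating array 2 belonged to the other 9 arrays. So did those of CETN2 in thymus and on lactating array 2, and of KIF22 in spleen. BUB3 and KIF22 thus lay at least 0.5 log unit from 0 in both sets.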
